A study of Mus musculus with 4 samples.

Results

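The myeloid C-type lectin receptors described here are *Clec4a1*, *Clec4a2*, *Clec4a3*, *Clec4d*, *Clec4e*, *Clec5a* and *Clec12a*, 7 of the 18695 genes counted in single bone marrow cells of control and *Tet2* KO mice. The 8 genes of the list were chosen by name as receptors of one family, and *Clec7a* was not analysed here. RNA was measured in 4 libraries, 1 for each of 2 genotypes and 2 sorts. *Tet2* KO mice carried Mx1-Cre and Tet2 fl/fl, and controls were Cre-negative littermates with the same Tet2 fl/fl alleles. Mice of both genotypes received pI:pC, a double-stranded RNA mimic given as 4 injections at 12.5 ug/g, which switches on the interferon-inducible Mx1 promoter, so controls had the same inflammatory stimulus. Mx1-Cre also acts outside blood cells. The methods of the study give an age of 8 to 12 weeks, and both sexes, for the mice of its experiments. The GMP sort took Lin- cKit+ Sca1- CD34+ CD16/32+ cells, the granulocytic-monocytic progenitors, and the Lin-/CD11b+ sort took Lin- progenitors together with CD11b+ myeloid cells. Both libraries of a genotype came from 1 mouse, so a difference between genotypes cannot be told apart from a difference between 2 mice or preparations. No test was possible, no p-value is given, and intervals, at 95%, reflect error of counting and nothing else.

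C-type lectin receptors are membrane proteins through which myeloid cells sense sugars, lipids and debris of microbes and dying cells. Some activate the cell. Mincle (*Clec4e*) and its partner MCL (*Clec4d*) couple to the Fc receptor gamma chain (*Fcer1g*), and MDL-1 (*Clec5a*) couples to DAP12 (*Tyrobp*) and DAP10 (*Hcst*). These adaptors recruit the kinase Syk, which signals through Card9, Bcl10 and Malt1 to NF-kB. Others restrain it, among them DCIR (*Clec4a2*) and MICL (*Clec12a*), whose inhibitory motifs recruit the phosphatases SHP-1 (*Ptpn6*) and SHP-2 (*Ptpn11*). *Clec4a1* and *Clec4a3* are close relatives of *Clec4a2* in the same gene cluster.

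All 7 genes lie on chromosome 6 (RefSeq annotation of GRCm38.p6). *Clec5a* stands apart at chr6:40574898-40585805. The next 5 lie in order within one stretch: *Clec4a1* at chr6:122921848-122934619, *Clec4a3* at chr6:122952515-122969878, *Clec4a2* at chr6:123122690-123143999, *Clec4d* at chr6:123262107-123275268 and *Clec4e* at chr6:123281789-123289871. *Clec12a* follows at chr6:129349783-129365303. *Clec4d* and *Clec4e* are 6520 bases apart and point towards each other. The promoters of 5 members are shown because these genes carry the patterns below: *Clec4a1* and *Clec4a3* had nearly the same profile over cell types, *Clec4a2* was higher in *Tet2* KO GMP-like cells, *Clec4e* was lower in *Tet2* KO neutro-biased ones, and *Clec12a* was present in every myeloid type. Each run is the RefSeq sequence from 250 bases before to 50 bases after a start site on the strand of the gene. Capitals mark matches on either strand to GAGGAA (the core bound by PU.1), TTGCGCAA (the C/EBP palindrome) or TGANTCA (AP-1), motifs of myeloid factors chosen after the sequences had been seen. The windows are chr6:122921598-122921897, forward strand for *Clec4a1*, chr6:122952394-122952693, forward strand for the second of 2 start sites of *Clec4a3*, chr6:123122440-123122739, forward strand for *Clec4a2*, chr6:123289822-123290121, reverse strand for *Clec4e* and chr6:129349994-129350293, forward strand for *Clec12a*.
*Clec4a1*: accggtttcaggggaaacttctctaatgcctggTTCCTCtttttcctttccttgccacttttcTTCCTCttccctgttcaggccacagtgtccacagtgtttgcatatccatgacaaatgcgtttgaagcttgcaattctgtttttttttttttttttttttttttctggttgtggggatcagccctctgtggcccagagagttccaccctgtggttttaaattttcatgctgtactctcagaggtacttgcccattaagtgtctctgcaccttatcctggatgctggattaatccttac
*Clec4a3*: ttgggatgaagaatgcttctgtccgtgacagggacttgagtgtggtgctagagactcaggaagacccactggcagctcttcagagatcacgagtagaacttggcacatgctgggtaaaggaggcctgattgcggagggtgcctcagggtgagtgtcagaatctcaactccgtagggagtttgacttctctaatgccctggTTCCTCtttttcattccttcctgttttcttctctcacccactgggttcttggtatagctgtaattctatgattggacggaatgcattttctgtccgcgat
*Clec4a2*: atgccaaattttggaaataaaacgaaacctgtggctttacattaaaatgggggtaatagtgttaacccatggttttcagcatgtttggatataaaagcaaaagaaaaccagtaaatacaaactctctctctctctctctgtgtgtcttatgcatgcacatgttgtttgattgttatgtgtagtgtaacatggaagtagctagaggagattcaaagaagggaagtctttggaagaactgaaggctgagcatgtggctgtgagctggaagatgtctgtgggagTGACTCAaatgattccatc
*Clec4e*: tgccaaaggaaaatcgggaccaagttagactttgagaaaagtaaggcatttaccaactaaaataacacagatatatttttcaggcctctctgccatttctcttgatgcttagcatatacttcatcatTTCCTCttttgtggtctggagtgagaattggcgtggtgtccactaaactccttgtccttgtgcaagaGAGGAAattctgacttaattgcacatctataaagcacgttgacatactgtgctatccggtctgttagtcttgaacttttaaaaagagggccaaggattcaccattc
*Clec12a*: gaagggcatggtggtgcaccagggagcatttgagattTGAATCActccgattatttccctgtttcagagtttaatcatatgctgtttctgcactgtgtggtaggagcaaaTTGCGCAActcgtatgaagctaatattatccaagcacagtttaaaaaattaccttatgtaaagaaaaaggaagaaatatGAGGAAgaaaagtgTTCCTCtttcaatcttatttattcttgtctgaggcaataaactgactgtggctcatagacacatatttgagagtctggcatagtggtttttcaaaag

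GAGGAA was in 28.3% of all 32851 promoter windows of the same length, TGANTCA in 7.81% and TTGCGCAA in 0.183%. *Clec4a1* had 2 GAGGAA matches, 217 and 187 bases before its start, and the second start of *Clec4a3* had 1, 50 bases before it. The first start of *Clec4a3*, not shown, had 0 matches and shared no run longer than 8 letters with *Clec4a1*. The *Clec4a1* match at 217 bases and the match at the second *Clec4a3* start lie in the same run of 17 letters, cctggTTCCTCtttttc. It was the longest run shared by the promoters of any 2 members. *Clec4e* had GAGGAA 123 and 56 bases before its start, *Clec4d* had 3 matches and *Clec5a* 2. *Clec12a* held GAGGAA 61 and 47 bases before its start and was the only member with the TTGCGCAA palindrome, at 140 bases. It also had a TGANTCA match, 213 bases before its start. *Clec4a2* had no GAGGAA match and a TGANTCA match 31 bases after its start. The transcripts of *Clec4a1*, *Clec4a3*, *Clec4d*, *Clec4e* and *Clec5a* shared no word of 50 letters with transcripts of another gene (GENCODE vM21), so counts of these receptors were not split with an identical copy. In the last 500 bases of *Clec4a2* transcripts, 169 of 1886 words were shared, and *Clec4a2* counts are uncertain to that extent. Over whole *Clec4a2* transcripts 198 of 2959 words were shared, 114 of them with *Clec4a4*. *Clec12a* shared none of the 1702 words in its last 500 bases.

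The libraries held 1258 to 3068 cells and 22681380 to 42561110 UMIs (unique molecular identifiers, each marking 1 captured RNA molecule), with medians of 10417 to 18713 UMIs per cell. Of 8969 cells, 74 had a barcode sequence that was also in another library. *Tet2* transcripts were at 13 CPM (counts of a gene over the summed UMIs of the cells, scaled to 1e6) in control and 17.0 in *Tet2* KO cells from the GMP sort, and at 13.4 and 20.7 CPM in the Lin-/CD11b+ sort. UMIs are counted at the 3' end and do not report a deleted internal exon, so these values do not check the genotype. Cells were assigned to types by marker genes, none of them a member, and each name carries the ending -like. Since the types were rebuilt from markers, they may differ from those the study named. The GMP sort held 528 control and 1006 *Tet2* KO GMP-like mono-biased cells, 477 and 1283 GMP-like neutro-biased cells, and 115 and 181 HSPC-like cells (HSPC, stem and early progenitor cells). The Lin-/CD11b+ sort held 428 and 755 monocyte-like, 164 and 197 neutrophil-like, 330 and 357 GMP-like mono-biased, 210 and 293 GMP-like neutro-biased and 268 and 607 HSPC-like cells. The gates are not sharp: 1354 cells (15.1%) lay near the boundary to another type.

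Free RNA in droplets can put a UMI of a receptor into a cell that does not express it. Cells of the lymphoid-like gate in cluster 11, its largest cluster, served as background in the Lin-/CD11b+ sort, with medians of 14916 UMIs in control and 12632 in *Tet2* KO cells. There *Clec4a2* was at 2.65 CPM in control and 6.85 CPM in *Tet2* KO, *Clec4a1* at 2.21 and 3.43 CPM, *Clec4a3* at 3.09 and 1.71 CPM, *Clec4e* at 0.442 and 2.85 CPM, *Clec5a* at 0.884 and 1.71 CPM, *Clec4d* at 0 and 0.571 CPM, and *Clec12a* at 14.1 and 6.85 CPM. Of 142 control cells, 2.11% had a *Clec4a2* UMI, and of 131 *Tet2* KO cells 4.58%. Values of a few CPM in other types of this sort are therefore read as background. In the whole lymphoid-like gate *Clec4a2* was at 10.2 CPM in control and 43.2 CPM in *Tet2* KO. Its *Tet2* KO cells included 54 of cluster 15, with *Clec4a2* at 109 CPM and *Clec4a3* at 98.8 CPM, against 9 control cells of that cluster. The gate was not compared further.

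*Clec4a1* and *Clec4a3* marked the mature end of the myeloid series. In progenitors they were nearly absent: *Clec4a1* had 0 UMIs in control HSPC-like and GMP-like neutro-biased cells from the GMP sort, which allows up to 1.67 and 0.404 CPM, and 0.308 CPM in control GMP-like mono-biased cells. *Clec4a3* was between 0.219 and 1.63 CPM in the GMP-like types of that sort. In the Lin-/CD11b+ sort, control monocyte-like cells had 19.0 CPM (15 to 23.7) of *Clec4a1* and 29.1 CPM (24.1 to 34.7) of *Clec4a3*. Control neutrophil-like cells had 20.9 and 45.4 CPM, and control cDC-like cells (conventional dendritic cells) 19.9 and 23.8 CPM. Few cells carried much of these counts. The 3 cells with most UMIs held 35.3% and 33.8% of those in neutrophil-like cells. In cDC-like cells they held 70% and 83.3%, on 10 and 12 UMIs in all. For *Clec4a1* the intervals of the monocyte-like, neutrophil-like and cDC-like cells overlapped, so their order is not resolved at this depth. The pDC-like cells (plasmacytoid dendritic cells) were at background for both, with 1.19 and 2.39 CPM.

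*Clec4a2*, which encodes DCIR, was low in HSPC-like and highest in neutrophil-like cells. It was at 1.36 and 2.13 CPM in control HSPC-like cells of the GMP and Lin-/CD11b+ sorts, 60.4 and 66.2 CPM in GMP-like neutro-biased cells, and 38.3 and 51.5 CPM in GMP-like mono-biased cells. It reached 165 CPM (153 to 178) in control monocyte-like and 436 CPM (405 to 469) in control neutrophil-like cells, where 88.4% of cells had a UMI. *Clec5a*, which encodes MDL-1, was also low in HSPC-like and highest in neutrophil-like cells. Unlike *Clec4a2*, it was lower in GMP-like neutro-biased than in GMP-like mono-biased cells. In control cells from the Lin-/CD11b+ sort it was at 3.35 CPM in HSPC-like, 21.9 in GMP-like neutro-biased and 41.5 in GMP-like mono-biased cells. It was at 45.7 CPM in monocyte-like and 84.7 CPM in neutrophil-like cells. The GMP-like mono-biased and monocyte-like values of *Clec5a* did not differ beyond their counting intervals.

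*Clec4e*, which encodes Mincle, was already present in HSPC-like cells. That gate is not limited to stem cells. Its control cells from the GMP sort held the neutro-biased markers *Mpo* and *Elane* at 3323 and 2025 CPM, beside the HSPC marker *Hlf* at 17.7 CPM. Control HSPC-like cells had 30.8 CPM (23.9 to 39) in the GMP sort and 29.3 CPM (23.7 to 35.7) in the Lin-/CD11b+ sort. The control GMP-like neutro-biased cells had 18.8 and 15.7 CPM and the GMP-like mono-biased cells 8.0 and 5.86 CPM. The level was 6.73 CPM in control monocyte-like cells and 63.3 CPM (51.6 to 76.7) in control neutrophil-like cells. *Clec4d*, which encodes MCL, was like *Clec4e* lowest among progenitors in GMP-like mono-biased cells, at 12.5 and 8.68 CPM in control. It was at 23.5 and 17.1 CPM in control HSPC-like and 20.9 and 21.6 CPM in control GMP-like neutro-biased cells. Unlike those of *Clec4e*, the HSPC-like and GMP-like neutro-biased values of *Clec4d* did not differ beyond their counting intervals. It had 1.68 CPM in control monocyte-like and 12.9 CPM in control neutrophil-like cells. The basophil- or mast-like cells of the control GMP library also carried both, with 18.9 CPM of *Clec4e* and 8.65 CPM of *Clec4d*.

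*Clec12a*, which encodes the inhibitory receptor MICL, was found in all myeloid types. Its level in control cells was 158 CPM in HSPC-like cells from the GMP sort, 126 CPM in those from the Lin-/CD11b+ sort, and 548 and 578 CPM in GMP-like neutro-biased cells. It was 378 and 331 CPM in GMP-like mono-biased, 254 CPM in monocyte-like, 350 CPM in neutrophil-like, 282 CPM in pDC-like, 199 CPM in cDC-like and 381 CPM in basophil- or mast-like cells from the Lin-/CD11b+ sort. Among control GMP-like neutro-biased cells, 93.5% and 96.2% had a UMI, and 79.2% and 87.6% did at 5000 UMIs per cell.

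**Figure D1:**
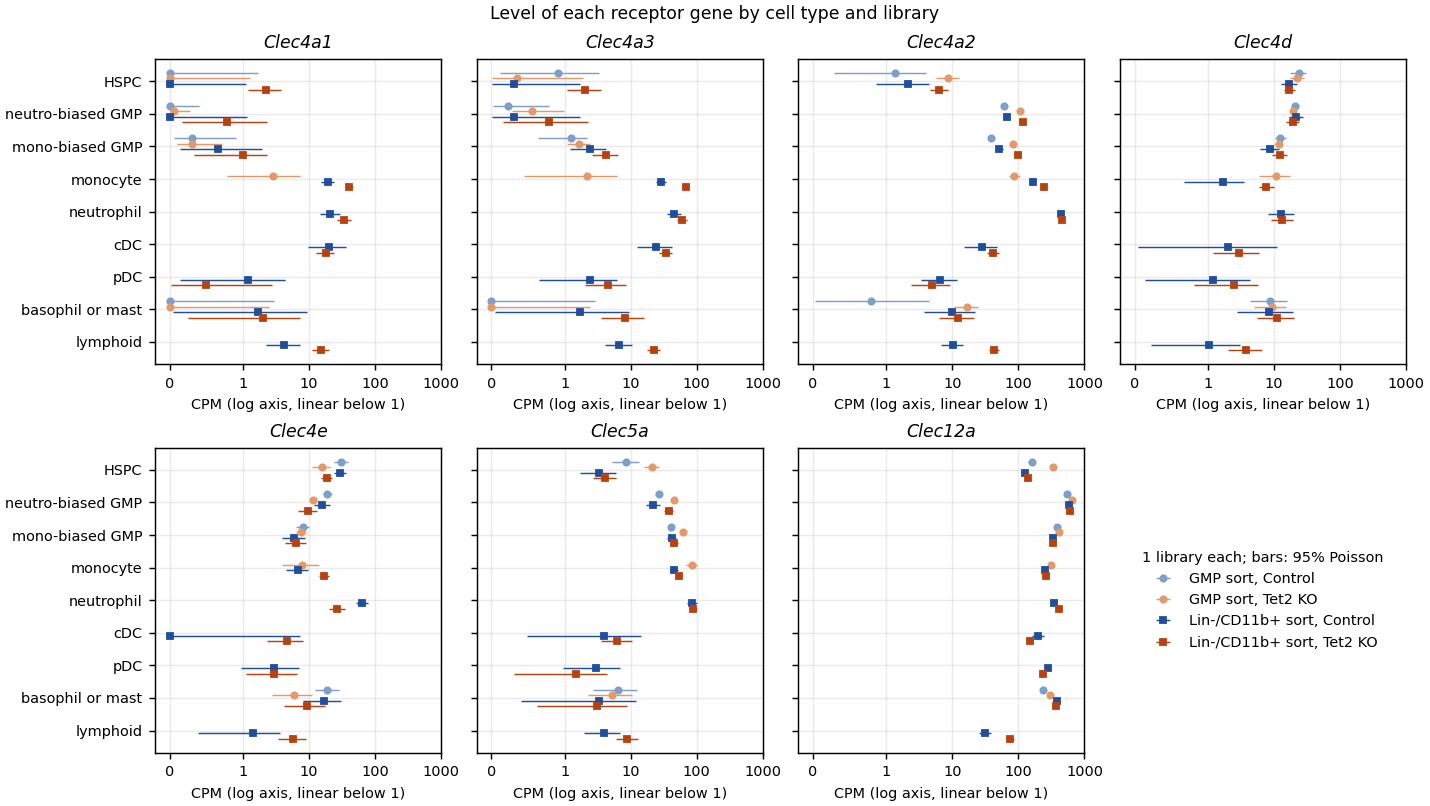
CPM of each receptor gene (x axis, log scale, linear below 1) in each marker-gated cell type (y axis) for the 4 libraries, with 95% Poisson intervals as bars. *Clec4a1* and *Clec4a3* have points above 10 CPM only in monocyte-like, neutrophil-like, cDC-like and *Tet2* KO lymphoid-like cells, whereas *Clec12a* lies above 100 CPM in every type except lymphoid-like cells.

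To ask how the receptors differed between genotypes, each member with at least 20 UMIs over the 2 libraries of a sort was given a log2 ratio of CPM, *Tet2* KO over control, within a type, and a ratio of at least 1.5-fold was counted. In GMP-like mono-biased cells, 2 of 6 members were past 1.5-fold higher in each sort (*Clec4a2* in both, with *Clec5a* in the GMP sort and *Clec4a3* in the Lin-/CD11b+ sort) and 0 lower. That *Clec4a3* value, 2.39 and 4.19 CPM (0.81, -0.31 to 2.01), has an interval that includes 0 and is near the 3.09 and 1.71 CPM of background cells, so it is not read as a difference. Of all genes with as many UMIs, 3.92% were past it higher and 5.61% lower in the GMP sort, and 7.01% and 5.05% in the Lin-/CD11b+ sort. In GMP-like neutro-biased cells, 2 of 5 members were higher (*Clec4a2* and *Clec5a*) and 1 lower (*Clec4e*) in each sort, beside 4.92% and 5.69% of all genes in the GMP sort and 8.8% and 4.62% in the Lin-/CD11b+ sort. In HSPC-like cells from the GMP sort 3 of 5 members were higher and 1 lower, beside 5.69% and 11.3% of all genes. In HSPC-like cells from the Lin-/CD11b+ sort 1 was higher (*Clec4a2*, at background level) and 1 lower (*Clec4e*), beside 8.73% and 4.03%. In monocyte-like cells 4 of 7 members were higher and 0 lower, beside 8.57% and 5.58%. In neutrophil-like cells 1 of 7 was higher and 1 lower, beside 26.2% and 4.38%.

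The median log2 ratio of the members was 1.10 in monocyte-like cells, where that of all genes was 0.025. It was 0.27 and 0.30 in GMP-like mono-biased cells of the GMP and Lin-/CD11b+ sorts, where all genes had -0.023 and 0.024, and 0.26 and 0.04 in GMP-like neutro-biased cells, where all genes had -0.041 and 0.015. HSPC-like cells had 1.08 and 0.13, against -0.073 and 0.022 for all genes. In neutrophil-like cells the members had 0.06 and all genes 0.303, so ratios there are best read against that shift.

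**Figure D2:**
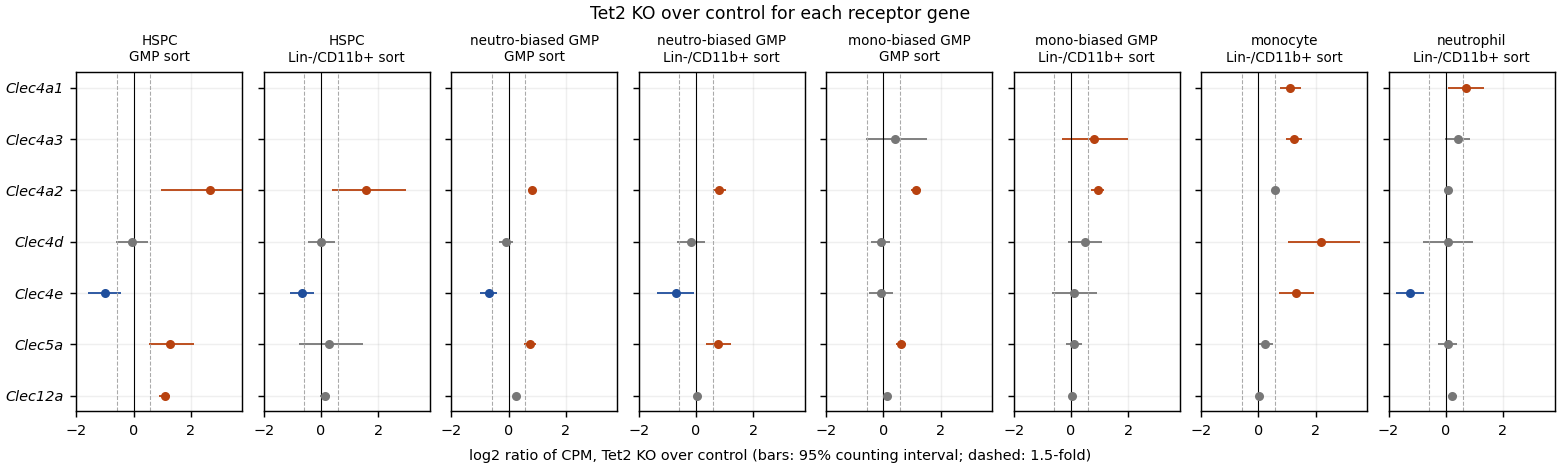
Log2 ratio of CPM, *Tet2* KO over control (x axis), of each receptor gene with at least 20 UMIs (y axis) in 8 comparisons of 1 library with 1 library, with 95% counting intervals as bars and dashed lines at 1.5-fold. *Clec4a2* lies to the right of 0 in the 6 progenitor comparisons, and *Clec4e* lies to the left in HSPC-like, GMP-like neutro-biased and neutrophil-like cells and to the right in monocyte-like cells.

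*Clec4a2* was higher in *Tet2* KO GMP-like cells of both sorts. In GMP-like mono-biased cells it was at 38.3 CPM in control and 83.7 CPM in *Tet2* KO in the GMP sort (log2 ratio 1.13, interval 0.96 to 1.30), and at 51.5 and 98.7 CPM in the Lin-/CD11b+ sort (0.94, 0.71 to 1.17). In GMP-like neutro-biased cells it was at 60.4 and 107 CPM (0.83, 0.69 to 0.96), and at 66.2 and 117 CPM (0.82, 0.58 to 1.06). The libraries of both genotypes did not overlap in their counting intervals in any of these 4 comparisons. At 5000 UMIs per cell, 15.2% of control and 26.5% of *Tet2* KO GMP-like mono-biased cells from the GMP sort had a *Clec4a2* UMI, and 16.7% and 31.9% in the Lin-/CD11b+ sort. Among GMP-like neutro-biased cells these were 20.5% and 34.0%, and 26.2% and 34.5%, and the intervals of the last pair of shares overlap. Within GMP-like mono-biased cells from the GMP sort, *Clec4a2* was at 36.2 and 78.0 CPM in cluster 0, 51.8 and 103 CPM in cluster 1, and 30.7 and 102 CPM in cluster 8. Few cells did not decide it: the 3 cells with most UMIs held 8.31% of the control and 2.74% of the *Tet2* KO counts in that type. In HSPC-like cells the counts were small, with 3 control and 25 *Tet2* KO UMIs in the GMP sort (2.66, 0.94 to 5.03), where background cells were too few to measure. Those from the Lin-/CD11b+ sort had 2.13 and 6.29 CPM on 7 and 40 UMIs, no more than the 2.65 and 6.85 CPM of the background cells, so no difference is read there, and the ratio was -0.37 when types were taken from clusters. Toward maturity the difference was smaller, with 165 and 247 CPM in monocyte-like cells (0.58, 0.46 to 0.71), just under 1.5-fold, and 436 and 455 CPM in neutrophil-like cells (0.06, -0.08 to 0.20).

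*Clec5a* was higher in *Tet2* KO GMP-like neutro-biased cells of both sorts, at 26.5 CPM in control and 44.6 CPM in *Tet2* KO in the GMP sort (log2 ratio 0.75, 0.54 to 0.96) and at 21.9 and 37.6 CPM in the Lin-/CD11b+ sort (0.78, 0.36 to 1.21). The thinned shares were 11.1% and 17.5%, and 8.10% and 15.7%, and the intervals of the last pair overlap. In GMP-like mono-biased cells the 2 sorts gave different pictures. The GMP sort had 41.2 and 62.5 CPM (0.60, 0.43 to 0.77), just past 1.5-fold, and the Lin-/CD11b+ sort 41.5 and 44.9 CPM (0.11, -0.17 to 0.40). Mature cells differed little, with 45.7 and 54.0 CPM in monocyte-like (0.24, -0.01 to 0.50) and 84.7 and 88.6 CPM in neutrophil-like cells (0.06, -0.26 to 0.39). The adaptors of MDL-1 stood as follows in GMP-like neutro-biased cells from the GMP sort: *Tyrobp* was at 327 CPM in control and 480 CPM in *Tet2* KO (0.55, 0.50 to 0.61) and *Hcst* at 108 and 119 CPM (0.14, 0.03 to 0.25).

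**Figure D3:**
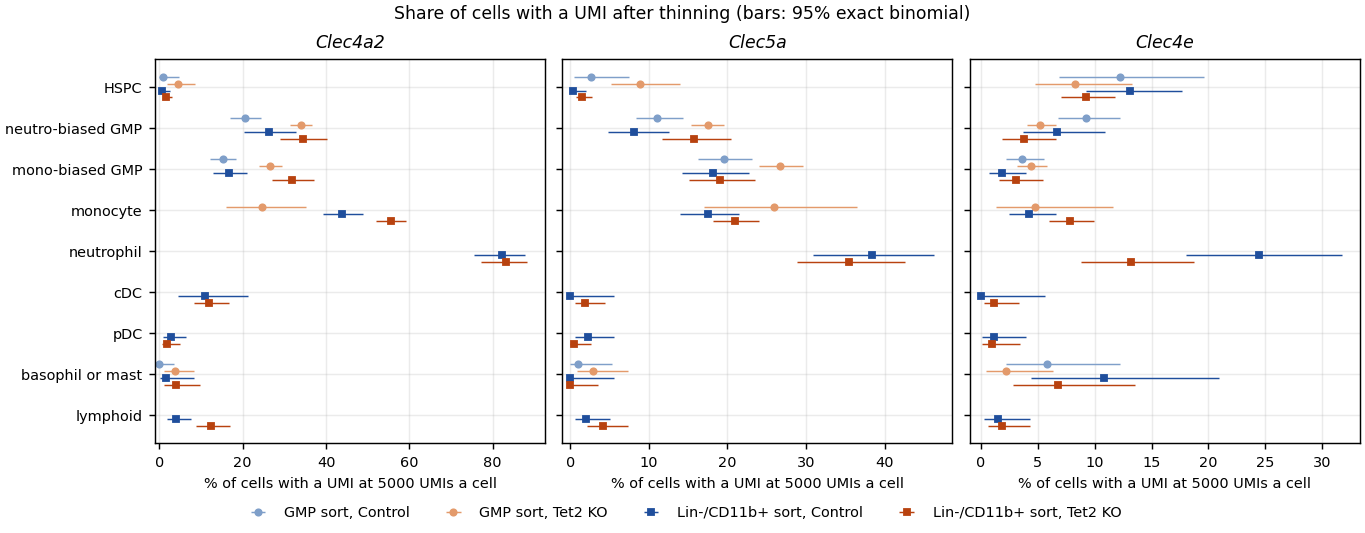
Percent of cells with a UMI of *Clec4a2*, *Clec5a* or *Clec4e* (x axis) by marker-gated type (y axis), after each cell was thinned to 5000 UMIs, for the 4 libraries with 95% exact binomial intervals as bars. The share for *Clec4a2* in GMP-like mono-biased cells is 15.2% and 16.7% in the control libraries and 26.5% and 31.9% in the *Tet2* KO libraries.

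Neutro-biased GMP-like cells of *Tet2* KO also held more RNA of monocyte and neutrophil markers in sum, though not of each marker. In the GMP sort 7 of 8 monocyte markers with enough UMIs were past 1.5-fold higher, beside 4.92% of all genes. Their summed level was 150 CPM in control and 285 CPM in *Tet2* KO. Of 6 neutrophil markers 3 were higher and 1 lower, with a sum of 385 and 1203 CPM. In the Lin-/CD11b+ sort 5 of 7 monocyte markers were higher and 0 lower, with a sum of 161 and 282 CPM. Of 7 neutrophil markers there 3 were higher and 1 lower, with a sum of 897 and 4157 CPM. Beside these, 8.8% of all genes were past 1.5-fold higher and 4.62% lower. The gate also held cells of clusters 0 and 1, which took the mono-biased name. In the GMP sort, of 477 control and 1283 *Tet2* KO cells, 9 and 79 were of cluster 0 and 3 and 41 of cluster 1. In the Lin-/CD11b+ sort, of 210 and 293 cells, 2 and 13 were of cluster 0 and 4 and 11 of cluster 1. The part of the marker shift and of these cells in the *Clec4a2* and *Clec5a* values was not tested. In GMP-like mono-biased cells from the GMP sort the monocyte markers summed to 1583 and 1500 CPM, with 2 of 9 past 1.5-fold higher, and the neutrophil markers to 39.8 and 252 CPM, with 4 of 5 higher. In those from the Lin-/CD11b+ sort the monocyte markers summed to 1900 and 1736 CPM, with 0 of 9 higher and 1 lower. The neutrophil markers there summed to 301 and 647 CPM, with 2 of 8 higher and 4 lower. Beside these, 3.92% of all genes were past 1.5-fold higher and 5.61% lower in the GMP sort. In the Lin-/CD11b+ sort these shares were 7.01% and 5.05%.

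*Clec12a* was similar between genotypes in most types. The log2 ratio was 0.12 (0.07 to 0.18) and 0.02 (-0.08 to 0.12) in GMP-like mono-biased cells of the GMP and Lin-/CD11b+ sorts, 0.26 (0.22 to 0.31) and 0.04 (-0.04 to 0.13) in GMP-like neutro-biased cells, 0.02 (-0.09 to 0.13) in monocyte-like and 0.22 (0.07 to 0.38) in neutrophil-like cells. Higher values in *Tet2* KO were found in HSPC-like cells from the GMP sort, at 158 CPM in control and 334 CPM in *Tet2* KO (1.08, 0.90 to 1.26), while those from the Lin-/CD11b+ sort were at 126 and 138 CPM (0.13, -0.04 to 0.30). Within the GMP-like neutro-biased gate, the larger ratios were found in cells of clusters 4 and 7, which took the HSPC name. In the GMP sort those in cluster 4 were at 181 and 396 CPM (1.13, 0.91 to 1.36) and those in cluster 7 at 191 and 411 CPM (1.10, 0.85 to 1.37). In the Lin-/CD11b+ sort those in cluster 4 were at 195 and 333 CPM (0.77, 0.32 to 1.24). Clusters 2, 6 and 8 took the neutro-biased name. Their ratios in this gate of the GMP sort were 0.33 (0.26 to 0.40), 0.19 (0.11 to 0.27) and 0.05 (-0.12 to 0.23). In the GMP sort 44.3% of control and 69.1% of *Tet2* KO HSPC-like cells had a UMI at 5000 UMIs per cell. The HSPC-like gate held *Clec5a* at 8.60 and 20.9 CPM (1.28, 0.52 to 2.11). Beside these values, 5 of 7 monocyte markers were past 1.5-fold higher, with a sum of 301 and 520 CPM. Of all genes 5.69% were past it higher and 11.3% lower. Of 6 neutro-biased markers 1 was higher, the granule protease gene *Elane* at 2025 and 3520 CPM, and 1 lower, *Cebpe* at 46.6 and 27.1 CPM, with a sum of 11809 and 15610 CPM. Of 8 HSPC markers 0 were higher and 2 lower, with a sum of 1784 and 2017 CPM. The 2 were *Hlf* at 17.7 and 8.22 CPM and *Mecom* at 9.05 and 3.42 CPM. Of 115 control and 181 *Tet2* KO cells of this gate, 18 and 4 were of cluster 9, which took the HSPC name. The part of these markers and cells in the receptor values of the gate, those of *Clec4e* included, was not tested.

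*Clec4e* went the other way from *Clec4a2* in progenitors. HSPC-like cells had 30.8 CPM in control and 15.4 CPM in *Tet2* KO in the GMP sort (log2 ratio -1.0, -1.58 to -0.43), and 29.3 and 18.4 CPM in the Lin-/CD11b+ sort (-0.67, -1.07 to -0.26). The GMP-like neutro-biased cells had 18.8 and 11.6 CPM (-0.70, -0.99 to -0.40), and 15.7 and 9.59 CPM (-0.71, -1.36 to -0.07). In each of these 4 comparisons *Tet2* KO was the lower library. GMP-like mono-biased cells, with 8.0 and 7.55 CPM and 5.86 and 6.38 CPM, did not differ beyond their intervals. At 5000 UMIs per cell the share of HSPC-like cells with a *Clec4e* UMI was 12.2% in control and 8.29% in *Tet2* KO in the GMP sort and 13.1% and 9.23% in the Lin-/CD11b+ sort, with intervals that overlap. When types were taken from clusters, the HSPC-like ratios were -0.57 and -0.39, both short of 1.5-fold. *Clec4d*, the neighbour of *Clec4e*, was level in the same cells, with 23.5 and 22.6 CPM (-0.06, -0.61 to 0.49) and 17.1 and 17.1 CPM (0.01, -0.47 to 0.50) in HSPC-like cells and 20.9 and 19.5 CPM (-0.10, -0.35 to 0.16) and 21.6 and 19.2 CPM (-0.17, -0.66 to 0.32) in GMP-like neutro-biased cells. In basophil- or mast-like cells from the GMP sort *Clec4e* was at 18.9 and 5.91 CPM (-1.68, -2.96 to -0.52), on 24 and 9 UMIs.

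In neutrophil-like cells *Clec4e* was at 63.3 CPM (51.6 to 76.7) in control and 26.3 CPM (19.8 to 34.3) in *Tet2* KO, a log2 ratio of -1.26 (-1.76 to -0.78). The share of cells with a UMI at 5000 UMIs per cell was 24.4% and 13.2%, with intervals that overlap. Within cluster 12, which held 147 control and 156 *Tet2* KO of these cells, the levels were 70.7 and 22.5 CPM (-1.65, -2.24 to -1.09). *Clec4d* was at 12.9 and 13.4 CPM (0.06, -0.81 to 0.95). The genotypes also differed in markers of the gate. *Retnlg*, a gene of late neutrophils, was at 3386 and 1494 CPM, and *Elane* at 559 and 1183 CPM. The neutrophil markers summed to 412953 and 322125 CPM, with 4 of 10 past 1.5-fold lower, beside 4.38% of all genes. Of 9 monocyte markers 8 were past it higher, beside 26.2% of all genes, with a sum of 1066 and 2065 CPM. The part of these markers in the *Clec4e* value was not tested. *Clec4a1* was at 20.9 and 34.0 CPM in the gate (0.70, 0.09 to 1.34) and at 23.6 and 28.6 CPM within cluster 12 (0.28, -0.40 to 0.97). *Clec4a3* was at 45.4 and 60.4 CPM in the gate and at 51.4 and 46.2 CPM within cluster 12. The gate also held 2 control and 23 *Tet2* KO cells of cluster 3, which took the monocyte name. The part of these cells in the gate values was not tested.

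In monocyte-like cells 4 of the 7 receptors were past 1.5-fold higher in *Tet2* KO, and *Clec4a2* was just under it. The intervals of the *Clec5a* and *Clec12a* ratios included 0. *Clec4a1* was at 19.0 CPM (15 to 23.7) in control and 40.8 CPM (36.4 to 45.5) in *Tet2* KO (log2 ratio 1.10, 0.74 to 1.48). *Clec4a3* was at 29.1 and 68.4 CPM (1.23, 0.95 to 1.53), with 13.1% and 22.9% of cells carrying a UMI at 5000 UMIs per cell. *Clec4e* was at 6.73 and 16.8 CPM (1.32, 0.72 to 1.96), the opposite direction to HSPC-like, GMP-like neutro-biased and neutrophil-like cells. *Clec4d* was at 1.68 and 7.64 CPM (2.18, 1.05 to 3.56) on 7 and 60 UMIs. The intervals of both genotypes did not overlap for any of these 4 genes. *Clec12a* was level, with 254 and 257 CPM.

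The monocyte-like gate was not uniform, and *Clec4a1* and *Clec4a3* were concentrated in one part of it. Cluster 3, the cluster that also took the monocyte name, held 253 control and 495 *Tet2* KO cells of the gate. There *Clec4a1* was at 31.3 and 62.2 CPM (0.99, 0.62 to 1.38), *Clec4a3* at 47.1 and 101 CPM (1.10, 0.80 to 1.41), *Clec4e* at 9.85 and 24.5 CPM (1.31, 0.66 to 2.03), and *Clec4d* at 1.29 and 10.1 CPM (2.97, 1.34 to 5.30) on 3 and 49 UMIs. *Clec4a2* was at 263 and 338 CPM (0.36, 0.23 to 0.50). *Clec5a* and *Clec12a* were not concentrated there: in control cells *Clec5a* was at 57.8 CPM in cluster 3 and 67.0 CPM in cluster 1, and *Clec12a* at 243 and 379 CPM. Cells of the gate in cluster 5, 98 and 117 in number, had *Clec4a2* at 7.91 and 23.0 CPM and the other Clec4 genes below 7 CPM in both genotypes, while *Clec12a* was at 221 and 158 CPM (-0.49, -0.80 to -0.19). Neutrophil markers moved with genotype in the monocyte-like gate. Their sum was 592 CPM in control and 3121 CPM in *Tet2* KO. Past 1.5-fold, 4 of 8 were higher and 2 lower, beside 8.57% and 5.58% of all genes. Most of that sum was *S100a8* at 306 and 2485 CPM and *S100a9* at 131 and 395 CPM, while *Ngp* was at 35.3 and 20.4 CPM and *Ltf* at 9.37 and 4.20 CPM. Of 7 cDC markers 4 were past 1.5-fold higher and 2 lower, with a sum of 90.6 and 317 CPM, most of it *Cd74* at 31.2 and 191 CPM. The part of both lists in the values of the receptors was not tested.

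**Figure D4:**
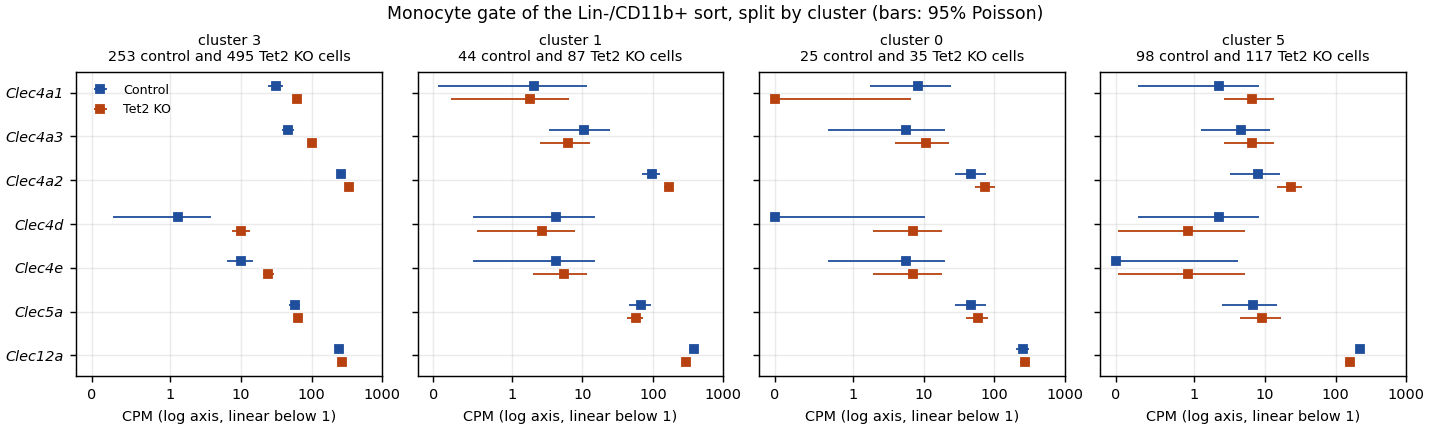
CPM of each receptor gene (x axis, log scale, linear below 1) in monocyte-like cells from the Lin-/CD11b+ sort, split into the 4 clusters with at least 20 such cells in each library, with 95% Poisson intervals as bars. In cluster 3 *Clec4a1*, *Clec4a3*, *Clec4d* and *Clec4e* lie higher in *Tet2* KO with intervals apart, and in cluster 5 only *Clec4a2* and *Clec12a* exceed 10 CPM.

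The GMP sort of *Tet2* KO also held 85 cells of the monocyte-like gate, with 87.0 CPM of *Clec4a2*, 84.1 CPM of *Clec5a*, 10.7 CPM of *Clec4d* and 2.85 CPM of *Clec4a1*. The control library had 11 such cells, under the minimum of 50, so no comparison was made. In cDC-like cells *Clec4a2* was at 27.8 and 41.1 CPM (0.56, -0.25 to 1.49) and *Clec12a* at 199 and 149 CPM (-0.41, -0.74 to -0.08). In pDC-like cells *Clec12a*, the one member clearly above background, was at 282 and 235 CPM (-0.26, -0.45 to -0.07). In basophil- or mast-like cells from the Lin-/CD11b+ sort *Clec12a* was at 381 and 371 CPM (-0.04, -0.28 to 0.21). In those from the GMP sort *Clec4a2* had 1 control and 25 *Tet2* KO UMIs, and 60.0% of the latter came from 3 cells.

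At 5000 UMIs per cell, cells with 3 or more members were most frequent among monocyte-like and neutrophil-like cells of the Lin-/CD11b+ sort. UMIs of 2 or more members were common in GMP-like cells. In the GMP sort 33.7% of control and 44.7% of *Tet2* KO GMP-like mono-biased cells had them. Among GMP-like neutro-biased cells of that sort these were 35.8% and 49.9%. In control monocyte-like cells 18.5% had UMIs of 3 or more members, and in *Tet2* KO 31.8%. In neutrophil-like cells these were 46.3% and 48.2%, in GMP-like mono-biased cells from the GMP sort 6.82% and 12.6%, and in GMP-like neutro-biased cells of that sort 8.39% and 12.1%. UMIs of *Clec4a1* and *Clec4a3* fell in the same cells more than their separate shares give. In control monocyte-like cells 5.14% (3.25% to 7.68%) had both, where independent shares would give 1.31%, and in *Tet2* KO 9.67% (7.66% to 12%), where they would give 3.79%. The neutrophil-like cells had both in 3.66% and 7.61%, against 0.602% and 2.04%. *Clec4d* and *Clec4e* UMIs met in few cells: 0.839% of control and 0.857% of *Tet2* KO GMP-like neutro-biased cells from the GMP sort had both, beside 0.986% and 0.456% from independent shares. In neutrophil-like cells 3.66% (1.35% to 7.79%) of control and 1.52% (0.315% to 4.39%) of *Tet2* KO had both, beside 1.49% and 0.603%, on 6 and 3 cells. In monocyte-like cells 0 of 428 control cells, which allows up to 0.858%, and 0.795% of *Tet2* KO cells had both, beside 0.0295% and 0.29%.

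Over the 27 profiles of a type in a library, log2(CPM + 10) of *Clec4a1* and *Clec4a3* had a Pearson correlation of 0.983, and each was the gene most like the other among all genes with at least 200 UMIs. Next came *Ccl6* (0.962) and *Gm5150* (0.960) for *Clec4a1*, and *Sirpb1c* (0.958) and *Ccl6* (0.958) for *Clec4a3*. *Clec4a2* was most like *C3* (0.956), which encodes complement component C3, then *Gm21188* (0.937) and *Prdx5* (0.928). *Clec5a* was most like *Aoah* (0.961), an enzyme that inactivates lipopolysaccharide, *Dram1* (0.958) and *Hp* (0.957). *Clec4e* was most like *Padi4* (0.847), an enzyme of neutrophil extracellular traps, *Plscr1* (0.846) and *Abcc5* (0.80), and *Clec4d* most like *Prodh* (0.880), *1700037H04Rik* (0.880) and *Pgm2* (0.865). *Clec12a* was most like *Mrps18c* (0.912), *Ndufb7* (0.882) and *Mpc1* (0.877), genes of mitochondria. Among the members, *Clec4a2* and *Clec5a* had 0.87, *Clec4d* and *Clec4e* 0.66, and *Clec4a1* and *Clec4d* -0.41. These profiles share libraries and depth, and they describe this set of types only.

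Adaptors and signalling genes of the receptors were mostly level between genotypes. Of 16 such genes, 15 had enough UMIs in monocyte-like cells. Beside 8.57% and 5.58% of all genes, 1 was past 1.5-fold higher and 0 lower. That gene was *Fgr*, a Src-family kinase, at 10.3 CPM in control and 41.7 CPM in *Tet2* KO (2.01, 1.55 to 2.51). *Fcer1g*, the adaptor of Mincle and MCL, was at 1936 and 1955 CPM there. In GMP-like neutro-biased cells *Fcer1g* was past 1.5-fold higher, at 155 and 289 CPM in the GMP sort (0.90, 0.82 to 0.99) and 147 and 287 CPM in the Lin-/CD11b+ sort (0.97, 0.81 to 1.12), and it was the only one of 14 such genes in the GMP sort. In the Lin-/CD11b+ sort 4 of 14 were higher. The shares of all genes past it higher were 4.92% and 8.8% in the GMP and Lin-/CD11b+ sorts. In GMP-like mono-biased cells from the Lin-/CD11b+ sort 1 of 14 was higher, beside 7.01% of all genes. It was *Malt1*, at 8.68 and 15 CPM (0.78, 0.21 to 1.38). In HSPC-like cells from the GMP sort 2 of 13 were higher and 1 lower, beside 5.69% and 11.3% of all genes. *Fcer1g* was at 197 and 352 CPM there (0.84, 0.67 to 1.0). In those from the Lin-/CD11b+ sort 2 of 15 were higher and 1 lower, beside 8.73% and 4.03%. In neutrophil-like cells 3 of 14 were higher, a share below the 26.2% of all genes, and the intervals of *Card9* (-0.19 to 1.44) and *Malt1* (-0.22 to 1.65) include 0, while *Cbl* was at 46.7 and 71.4 CPM (0.61, 0.20 to 1.03). The phosphatases of the inhibitory receptors, *Ptpn6*, *Ptpn11* and *Inpp5d*, had 0 of 3 past 1.5-fold in each of the 8 comparisons, with *Ptpn6* at 236 and 245 CPM in monocyte-like cells.

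Other lectin genes moved in both directions. Of 26, 14 had enough UMIs in monocyte-like cells, with 3 higher and 4 lower, beside 8.57% and 5.58% of all genes. *Cd302*, a phagocytic lectin, was at 69.9 CPM in control and 122 CPM in *Tet2* KO (0.80, 0.61 to 0.99). The dendritic cell receptors *Clec9a*, at 20.4 and 7.39 CPM (-1.47, -1.97 to -0.97), and *Cd209a*, at 21.1 and 8.28 CPM (-1.35, -1.84 to -0.87), were lower. *Cd209a* is also a marker of the cDC list, in which the 4 genes that were higher encode class II antigen presentation proteins. *Clec4n*, which encodes Dectin-2 and was chosen after its values were seen, had 3 and 24 UMIs there (2.08, 0.36 to 4.46). In neutrophil-like cells 5 of 9 were higher and 2 lower, beside 26.2% and 4.38% of all genes, whose median log2 ratio was 0.303. *Cd302* was at 12.3 and 45.0 CPM there (1.87, 1.17 to 2.65). Among 12 lectin genes in GMP-like neutro-biased cells from the GMP sort 2 were higher and 4 lower, beside 4.92% and 5.69% of all genes. Among 12 in GMP-like mono-biased cells of that sort 2 were higher and 4 lower, beside 3.92% and 5.61%. In the latter *Mgl2*, a galactose lectin, was at 22.5 and 11.2 CPM (-1.01, -1.30 to -0.72).

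Cytokine genes that the Syk and Card9 pathway can induce were mostly lower in *Tet2* KO monocyte-like cells. Of 10 genes 5 had enough UMIs, with 1 higher and 3 lower, beside 8.57% and 5.58% of all genes. *Ccl3* was at 85.6 CPM in control and 22.4 CPM in *Tet2* KO (-1.93, -2.20 to -1.67), *Ccl4* at 29.1 and 4.71 CPM (-2.63, -3.20 to -2.08) and *Tnf* at 21.4 and 13.2 CPM (-0.69, -1.11 to -0.27), whereas *Nfkbia*, the inhibitor of NF-kB that NF-kB itself induces, was at 72.8 and 127 CPM (0.81, 0.62 to 1.0). In GMP-like mono-biased cells 3 of 5 were lower in each sort and 0 higher, beside 5.61% and 5.05% of all genes lower. HSPC-like cells had 2 of 3 lower in the GMP sort and 2 of 5 in the Lin-/CD11b+ sort, beside 11.3% and 4.03%. GMP-like neutro-biased cells had 1 of 5 higher and 1 lower in the GMP sort, beside 4.92% and 5.69%. In the Lin-/CD11b+ sort they had 1 of 4 higher and 0 lower, beside 8.8% and 4.62%. In neutrophil-like cells 3 of 6 were lower, beside 4.38% of all genes, with *Cxcl2* at 51.0 and 3.35 CPM (-3.93, -5.28 to -2.82).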

How the data were processed

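Single cells of 4 libraries, 1 for each genotype and sort, were used. The authors deposited raw counts, whole-number UMIs per gene and cell, pooled in 1 matrix of the filtered cells with a table that maps cells to libraries. Per the submitters' processing notes, Cell Ranger 3.1.0, Seurat and mm10 were used. The labels and the design text name different versions of the 10x kit. The lowest cell held 5003 UMIs, and 413 cells had at least 5% mitochondrial counts, above the limit the study states. Cell numbers per library follow the deposited map, in which those of the GMP *Tet2* KO and the Lin-/CD11b+ control libraries are the reverse of a supplementary list of the study. By marker gates the library labelled GMP *Tet2* KO held 0 neutrophil-like and 4 lymphoid-like cells, and the one labelled Lin-/CD11b+ control held 164 and 201.

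Each cell was assigned to the class of 11 with the highest marker score, from 82 markers, with at least 3 markers holding a UMI. This rule was settled after marker levels per class and the clusters had been seen. Leiden clusters (scanpy 1.11.5, leidenalg 0.10.2, igraph 0.11.9; 2000 variable genes, 30 components, 30 neighbours, resolution 0.8, seed 1) gave 17 clusters, whose class equalled the gate for 74.4% of cells, and 18 cells stayed unassigned. Scrublet called 0.346% of cells, which is too few to be taken as working, so doublets were kept.

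UMIs were summed per library and type with at least 50 cells and divided by the summed UMIs (CPM, exact Poisson intervals). For the share of cells with a UMI the interval is exact binomial, as counted and after each cell was thinned to 5000 UMIs. Log2 ratios have exact conditional binomial intervals and were given from 20 UMIs over both libraries, with a floor of 3 counts for a library at 0. Intervals are at 95% and cover counting error only. The ratio step was tested on simulated data. Python 3.11.15, numpy 2.4.6, scipy 1.17.1, pandas 2.3.3, R 4.3.3 and edgeR 4.0.16 (TMM factors as an alternative scaling only) were used.

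The receptors and the gene lists were chosen with earlier results of these data known. Of list genes past 1.5-fold, up to 4 per list by summed UMIs were named, and for each receptor the 3 genes with the most similar profile. *Tyrobp*, *Hcst*, *Ptpn6* and single marker genes were named after their values were seen. *Clec7a* was not analysed here. One gene of the signalling list is not reported here by name or value.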

Additional observations from a re-analysis of the deposited data

Results flagged for a closer look

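*Clec4e* was the one receptor that was past 1.5-fold lower in *Tet2* KO in some cell types and past 1.5-fold higher in another, among the 8 comparisons of the report. As the log2 of CPM in *Tet2* KO over CPM in control it was -1.0 in HSPC-like and -0.70 in GMP-like neutro-biased cells from the GMP sort. In the Lin-/CD11b+ sort it was -0.67 in HSPC-like, -0.71 in GMP-like neutro-biased and -1.26 in neutrophil-like cells, against 1.32 in monocyte-like cells. With 1 library per genotype and sort, the difference between cell types was not tested.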

How the results depend on the processing

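No paired analysis was possible because each group had 1 library and no replicate could be left out. Counts are of receptors past 1.5-fold unless another fold is named, and the causes of the changes were not tested. With 2-fold as the limit, 1 receptor was higher in GMP-like mono-biased cells from the GMP sort, and 0 were higher in those from the Lin-/CD11b+ sort, in GMP-like neutro-biased cells of both sorts and in neutrophil-like cells, and 0 were lower in HSPC-like and GMP-like neutro-biased cells of both sorts. With types taken from Leiden clusters, 1 was higher in GMP-like mono-biased cells of each sort, 0 in neutrophil-like cells, and 0 were lower in HSPC-like cells of both sorts, and the median log2 ratio in GMP-like neutro-biased cells from the GMP sort was 0.22. The ratio of *Clec4a2* in HSPC-like cells from the Lin-/CD11b+ sort turned to -0.37. Where gate and cluster agreed, an alternative added after seeing the data, 1 was higher in GMP-like mono-biased cells from the GMP sort, 0 in HSPC-like cells from the Lin-/CD11b+ sort and 0 in neutrophil-like cells, and the medians were 0.73 in HSPC-like cells from the GMP sort and 0.21 and 0.16 in GMP-like neutro-biased cells of the GMP and Lin-/CD11b+ sorts. Without cells near a boundary, 1 was higher in GMP-like mono-biased cells from the GMP sort and the HSPC-like median there was 0.44. With no minimum of UMIs, 3 were higher in HSPC-like cells from the Lin-/CD11b+ sort and 2 lower in those from the GMP sort, with medians of 0.51 in HSPC-like and GMP-like neutro-biased cells from the GMP sort and 0.41 in GMP-like neutro-biased cells from the Lin-/CD11b+ sort. After thinning to 5000 UMIs, 0 were lower in HSPC-like and 1 in GMP-like mono-biased cells from the Lin-/CD11b+ sort, and the medians were 0.63 and -0.16 in HSPC-like cells of the GMP and Lin-/CD11b+ sorts and 0.20 in GMP-like neutro-biased cells from the GMP sort. In neutrophil-like cells the number higher was 0 with TMM factors, whose shift was -0.293, and 2 with a mean over cells, without the highest Scrublet scores or without the 3 cells with most UMIs, which gave a median of 1.27 in HSPC-like cells from the GMP sort. Of 453 values for the ratio of a single receptor, 427 stayed within the counting interval of the reported ratio. Low counts limit *Clec4a1* and *Clec4a3* in progenitors and *Clec4d* in monocyte-like cells.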
